A study of Mus musculus with 18 samples.

Results

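The genes described are 42 genes of the integrated stress response and the unfolded protein response, out of 62197 genes in the deposited table. They were chosen by symbol and fall into an ATF4 arm of 19 genes, 4 stress sensors, and an XBP1 and ATF6 chaperone arm of 19 genes. Each symbol was found once, and all 42 genes had enough counts to be tested, among 17875 genes tested in all. Polyadenylated RNA of bone marrow-derived dendritic cells (DCs) was sequenced in bulk from strand-specific libraries. The cells came from mice with intact cytosolic phospholipase A_2_ (cPLA_2_ WT) or with a conditional knockout of its gene *Pla2g4a* (cPLA_2_ KO). The knockout combined floxed alleles, made with CRISPR–Cas9, with *Itgax-cre*, which is active in cells expressing CD11c, on a C57BL/6 background. Bone marrow of 6- to 8-week-old mice was grown for 10 days with supernatant of J558 cells that contains the growth factor GM-CSF. Nonconfined cells were collected when the culture ended, confined cells 4 h after being squeezed to 3 µm, and LPS-treated cells on the day after LPS. LPS was given at 100 ng/ml and washed away after 30 min according to the labels. Each treatment was applied to both genotypes, which makes 6 conditions with 3 libraries each. Collection times differ, so treatment and time in culture cannot be told apart. The sources do not say whether cPLA_2_ WT mice carried floxed alleles or Cre, and they call the 3 libraries of a condition biological replicates without saying whether each came from a separate mouse or culture. The p-values therefore measure the spread between these libraries. Reads on genes numbered 45020354, 39851237 and 34689393 in nonconfined cPLA_2_ WT, 45021696, 37116045 and 36034820 in nonconfined cPLA_2_ KO, 42049558, 45769637 and 33592725 in confined cPLA_2_ WT and 33672070, 33027230 and 39400286 in confined cPLA_2_ KO libraries. Libraries labelled LPS cPLA_2_ WT held 61300021, 52482280 and 52116837 reads, and those labelled LPS cPLA_2_ KO held 45160523, 43169041 and 39609637 reads.

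As background, the kinases PERK and GCN2 phosphorylate the translation factor eIF2α when proteins misfold in the endoplasmic reticulum (ER) or amino acids run short, and translation of the transcription factor ATF4 then increases. The ER sensor IRE1 splices *Xbp1* mRNA and the sensor ATF6 is cleaved, and both release transcription factors that induce chaperones and the machinery that degrades misfolded ER proteins. DCs are known for constitutive IRE1 activity. Gene-level counts show neither the splicing of *Xbp1* nor the translation of *Atf4* mRNA. The counts are not scaled for gene length, so levels are compared between conditions and not between genes. In bulk RNA, fewer cells of a type and less RNA per cell cannot be told apart.

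The labels were checked first. *Pla2g4a* (identifier GSMG0002495, minus strand of chromosome 1 from 149705372 to 149837041 of GRCm39) had 697, 686 and 770.4 normalized counts in nonconfined cPLA_2_ WT and 548, 542 and 533 in nonconfined cPLA_2_ KO libraries. In confined libraries it had 1369, 1430.3 and 1321 normalized counts in cPLA_2_ WT and 923, 871 and 919.5 in cPLA_2_ KO cells. It was lower in every cPLA_2_ KO library than in every cPLA_2_ WT library of these treatments, and it was not absent. In libraries labelled LPS cPLA_2_ WT it had 1005, 969 and 967 normalized counts, and in those labelled LPS cPLA_2_ KO it had 1065, 1032 and 1028. These values go against the genotype labels of the LPS libraries. The Y-linked gene *Ddx3y* had 3.05, 0 and 1.97 normalized counts in nonconfined cPLA_2_ WT and 949, 981 and 874 in nonconfined cPLA_2_ KO libraries. Confined cPLA_2_ WT libraries had 0, 1.72 and 2.37 and confined cPLA_2_ KO libraries 1036, 920.2 and 948 normalized counts of this gene. Genotype and the sex of the donor therefore cannot be told apart in nonconfined and confined cells. In libraries labelled LPS cPLA_2_ WT *Ddx3y* had 1271, 0 and 662 normalized counts, and in those labelled LPS cPLA_2_ KO 2.12, 1476 and 783, so libraries of the same label differ from each other. LPS libraries are therefore named by their labels. Most LPS values of single members are given for the 6 LPS libraries together against the 6 nonconfined ones. Counts by arm, medians, longer lists and all LPS values with equal library totals are given by label, and so rest on labels in doubt.

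Markers of DCs and of other cells were measured in the same libraries. All 12 DC markers were detected in each condition, with the most normalized counts for *Ccl22*. The gene that leads a list, here and below, has the most counts, which were not scaled for gene length. Their summed normalized counts were 529734, 501728 and 508195 in nonconfined cPLA_2_ WT, 602611, 569018 and 586241 in nonconfined cPLA_2_ KO, 515431, 480828 and 495512 in confined cPLA_2_ WT and 405073, 389313 and 403019 in confined cPLA_2_ KO libraries. Libraries labelled LPS cPLA_2_ WT summed to 1522359, 1455653 and 1499396 and those labelled LPS cPLA_2_ KO to 1505528, 1537164 and 1528748. Confinement raised 4 and lowered 7 DC markers in cPLA_2_ WT cells and lowered 12 in cPLA_2_ KO cells. The defining DC markers *Flt3* and *Cd209a* had 128, 113 and 116 and 153, 154 and 155 normalized counts in nonconfined cPLA_2_ WT libraries. The 10 neutrophil markers, led by *S100a9*, summed to 256115, 261004 and 259257 in nonconfined cPLA_2_ WT, 391724, 355682 and 380080 in nonconfined cPLA_2_ KO, 171594, 163858 and 161796 in confined cPLA_2_ WT and 359798, 369404 and 355500 in confined cPLA_2_ KO libraries. The corresponding sums of the 7 eosinophil markers, led by *Prg2*, were 33352, 33225 and 33201, then 82359, 76319 and 78430, then 9829, 9342 and 9221, and 24955, 24628 and 25520. Both marker sums were lower in every nonconfined or confined cPLA_2_ WT library than in every cPLA_2_ KO library of the same treatment. Single eosinophil markers did not all follow these sums, with 6 higher and 1 lower of 7 in nonconfined and 5 and 2 in confined cPLA_2_ KO cells. Of the neutrophil markers, 7 of 10 were higher in nonconfined and 10 of 10 in confined cPLA_2_ KO cells. Of all genes tested, 4.78% were higher and 4.11% lower in nonconfined and 18.8% and 20.6% in confined cPLA_2_ KO cells. Confinement of cPLA_2_ WT cells lowered 9 of 10 neutrophil markers, and lowered 5 and raised 1 of 7 eosinophil markers, while 28.4% of all genes tested were lower and 28.2% higher. Confinement of cPLA_2_ KO cells lowered 4 and raised 1 of the neutrophil markers and lowered 6 of the eosinophil markers, while 23.4% of all genes tested were lower and 22.8% higher. The interaction of confinement and genotype was positive for 9 of 10 neutrophil markers and negative for 8 of 12 DC markers, against 10.2% and 15.6% of all genes tested. With equal totals it was positive for 10 neutrophil markers and negative for 5 and positive for 1 of the DC markers. None of the neutrophil, eosinophil, mast cell or basophil, and macrophage markers was at 0 in every library. The study's methods keep the loosely attached cells, to part DCs from granulocytes and macrophages. They state that nonadherent granulocytes are removed, and that most cells from this protocol carry CD11c and MHC class II. The share of granulocytes and macrophages in the libraries was not measured, and their part in the results that follow was not tested.

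Of the remaining lists, the 10 macrophage markers, led by *Cd14*, summed to 70218, 67128 and 68240 in nonconfined cPLA_2_ WT, 74090, 78559 and 75992 in nonconfined cPLA_2_ KO, 203653, 194502 and 195966 in confined cPLA_2_ WT and 93600, 86116 and 91566 in confined cPLA_2_ KO libraries. The 8 mast cell or basophil markers, led by *Hdc*, summed to 10499, 10557 and 10680, then 15700, 15227 and 15281, then 16984, 16326 and 16858, and 9061, 8772 and 9048 in the same order. Single markers did not all follow these sums. In confined cPLA_2_ KO compared to confined cPLA_2_ WT cells, 4 macrophage markers were higher and 2 lower, or 7 and 2 with equal totals. Of the mast cell or basophil markers 6 were higher and 1 lower under either scaling. The shares of all genes tested were 18.8% and 20.6%. Confinement of cPLA_2_ WT cells raised 2 and lowered 4 macrophage markers, and raised 2 and lowered 6 mast cell or basophil markers. In cPLA_2_ KO cells it raised 2 and lowered 5, and raised 2 and lowered 6, respectively. Of all genes tested, 28.2% were higher and 28.4% lower in cPLA_2_ WT and 22.8% and 23.4% in cPLA_2_ KO cells. The interaction was negative for 2 macrophage markers, and positive for 4 and negative for 2 mast cell or basophil markers. The shares of all genes tested were 10.2% positive and 15.6% negative. Plasma cells depend on XBP1, and their markers had few counts. The 8 plasma cell or B cell markers in the table, led by *Prdm1*, summed to 216, 226 and 251 in nonconfined cPLA_2_ WT, 503, 407 and 379 in nonconfined cPLA_2_ KO, 625, 578 and 653 in confined cPLA_2_ WT and 481, 462 and 533 in confined cPLA_2_ KO libraries. Their defining marker *Tnfrsf17* was at 0 in every library, *Mzb1* was at 0 in 7 of 18 libraries, and *Igkc* and *Ighm* are not in the table. Confinement raised 2 and lowered 1 of these markers in cPLA_2_ WT cells, with 6 of 8 tested, against 28.2% and 28.4% of all genes tested. Of the 4 Y-linked genes, limma called 0 for confinement in either genotype and for the interaction, also at an unadjusted p under 0.05, as did edgeR and DESeq2.

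The first comparison asks what confinement does to each arm in cPLA_2_ WT DCs. Confined cPLA_2_ WT DCs had more mRNA for most of the ATF4 arm and less for most of the chaperone arm than nonconfined cPLA_2_ WT DCs. At an adjusted p under 0.05, 18 of 42 members were higher and 14 lower, against 28.2% and 28.4% of all genes tested. With an absolute log2 fold change above 1 as well, 11 were higher and 1 lower, against 11.4% and 7.62%. In the ATF4 arm 13 of 19 genes rose and 1 fell, with a median log2 fold change of 1.63 against -0.01 over all genes tested. Their changes ran from -0.68 to 3.70. In the chaperone arm 3 of 19 genes rose and 12 fell, with a median of -0.43 and changes from -1.15 to 0.36. Of the 4 sensors, 2 rose and 1 fell. The 10 members not called were *Sesn2*, *Vldlr*, *Phgdh*, *Shmt2*, *Slc7a5*, *Eif2ak4*, *Hspa5*, *Dnajb9*, *Herpud1* and *Creld2*. Giving every library an equal total, an alternative scaling, moved the median of all genes from -0.01 to -0.23 and the share of called genes that were higher from 49.8% to 32.6%. Under that scaling 14 members were higher and 20 lower, 28 of the 32 called members kept their call and direction, and the ATF4 arm held 13 higher and 4 lower genes against 0 and 14 in the chaperone arm. With the compared conditions alone, 5 chaperone arm genes were higher and 2 ATF4 arm genes lower. In a fit without the 6 LPS libraries, chosen after the data were seen, 19 members were higher and 15 lower.

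**Figure D1:**
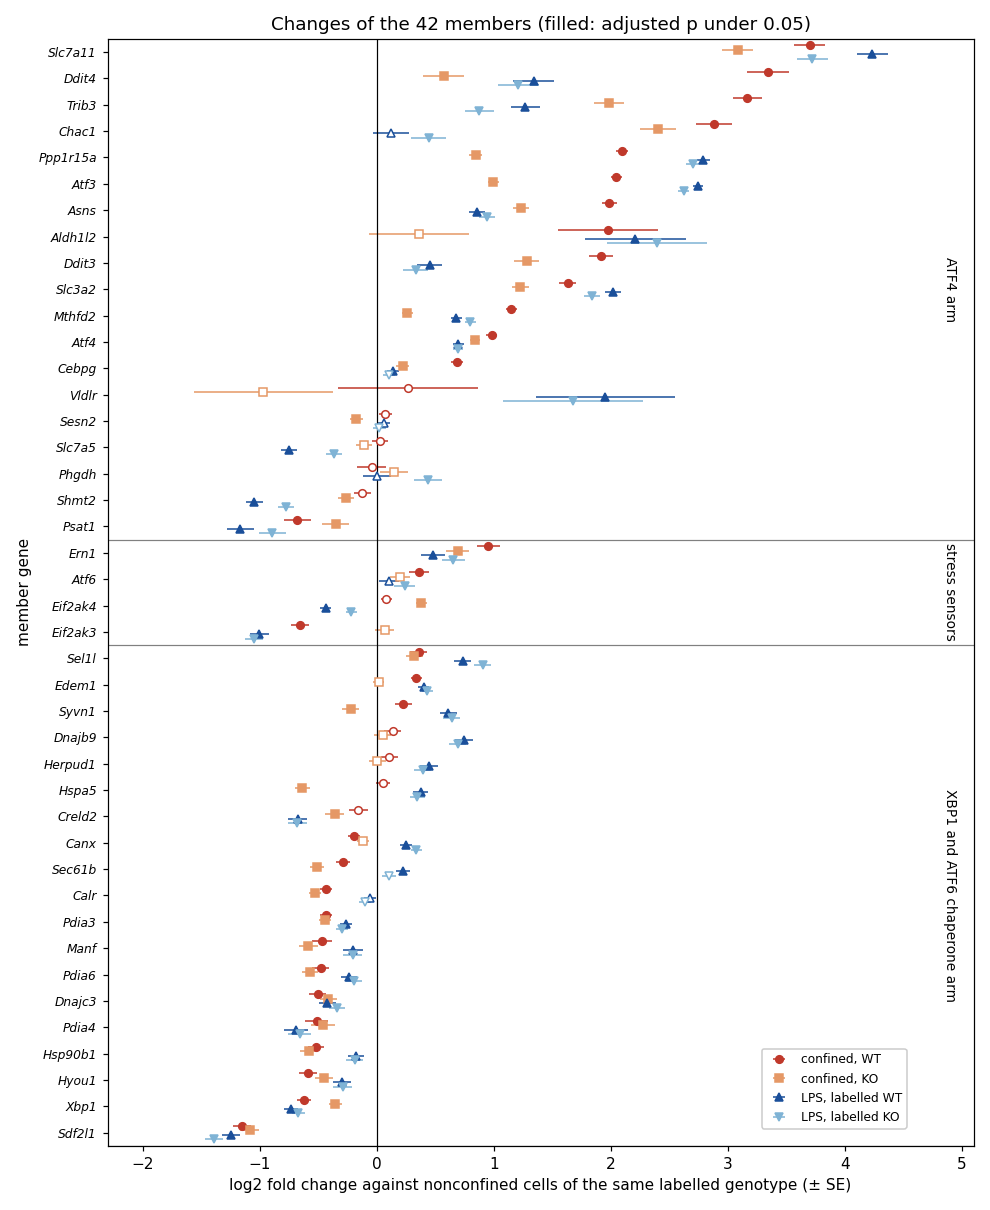
Log2 fold changes (± standard error) of the 42 members against nonconfined cells of the same labelled genotype, for confinement (red and orange) and LPS (dark and light blue), with filled symbols at an adjusted p under 0.05 and 3 libraries in each condition. In confined cPLA_2_ WT cells 13 of 19 genes of the ATF4 arm lie above 0 and pass the test, whereas 12 of 19 genes of the chaperone arm lie below 0 and pass it, or 14 with equal library totals.

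*Atf4* (identifier GSMG0018661, plus strand of chromosome 15 from 80139385 to 80141745), which encodes the transcription factor at the head of the arm, had 10006, 10041 and 10176 normalized counts in nonconfined and 20785, 19386 and 19543 in confined cPLA_2_ WT libraries. Every confined library was above every nonconfined one. Its mRNA was 1.98-fold higher (log2 fold change 0.98 ± 0.04, adjusted p = 4.21e-14 by limma, n = 3 libraries in each condition, where ± is the standard error here and at every log2 fold change and interaction that follows). *Ddit3* (identifier GSMG0005189, plus strand of chromosome 10 from 127126662 to 127132157), which encodes CHOP, a transcription factor linked to cell death under ER stress, had 193, 229 and 189 normalized counts in nonconfined and 841, 769 and 700.0 in confined cPLA_2_ WT libraries. The groups did not overlap, and *Ddit3* was 3.79-fold higher (log2 fold change 1.92 ± 0.11, adjusted p = 1.36e-12). *Atf3*, which encodes a stress-induced transcription factor, had 3033, 2919 and 3097 normalized counts before and 12956, 11975 and 12499 after confinement. All confined libraries were again the higher ones, by 4.14-fold (log2 fold change 2.05 ± 0.05, adjusted p = 3.44e-19).

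The largest increases in the ATF4 arm were those of *Slc7a11*, *Ddit4* and *Trib3*. *Slc7a11*, which encodes the cystine transporter xCT, had 4396, 4743 and 4657 normalized counts in nonconfined and 57479, 61721 and 60100.4 in confined cPLA_2_ WT libraries. The groups were far apart, and the level was 13-fold higher (log2 fold change 3.70 ± 0.13, adjusted p = 6.58e-16). *Ddit4* (identifier GSMG0005809, minus strand of chromosome 10 from 59785497 to 59787592), whose product REDD1 restrains mTORC1 signalling, had 1081, 956 and 1099 normalized counts in nonconfined and 11163, 10107 and 10546 in confined cPLA_2_ WT libraries. No library of either group came near the other group, and the level was 10.2-fold higher (log2 fold change 3.34 ± 0.18, adjusted p = 6.26e-13). *Trib3*, which encodes a pseudokinase induced by ATF4 and CHOP, had 127, 123 and 107 normalized counts in nonconfined and 1145, 1044 and 1039 in confined cPLA_2_ WT libraries. The confined libraries were all higher, by 9.04-fold (log2 fold change 3.17 ± 0.13, adjusted p = 4.47e-15). *Ppp1r15a*, which encodes GADD34, the phosphatase subunit that reverses eIF2α phosphorylation, had 1644, 1417 and 1570.3 normalized counts in nonconfined and 6859, 6221 and 6718 in confined cPLA_2_ WT libraries. These groups did not overlap either, with a 4.28-fold increase (log2 fold change 2.10 ± 0.05, adjusted p = 2.89e-18).

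The remaining genes of the ATF4 arm did not all rise. *Chac1*, which degrades glutathione and whose entry lies wholly within that of *Spint1*, rose by 2.88 on the log2 scale, *Asns*, which makes asparagine, by 1.99, and *Slc3a2*, the partner chain of xCT, by 1.63. The mitochondrial folate enzymes *Aldh1l2* and *Mthfd2* rose by 1.97 and 1.15, and *Cebpg*, a dimer partner of ATF4, by 0.69. *Aldh1l2* had few normalized counts, with means of 12.1 in nonconfined and 52.4 in confined cPLA_2_ WT libraries. Of the arm's other genes, 1 was called lower and 5 were not called. *Psat1*, the aminotransferase of serine synthesis, had 1682, 1706 and 1609 normalized counts in nonconfined and 994, 1023 and 1104 in confined cPLA_2_ WT libraries. All confined libraries were the lower ones, and *Psat1* was the gene of the arm that fell (log2 fold change -0.68 ± 0.12, adjusted p = 3.75e-05). *Phgdh*, which starts serine synthesis, had a log2 fold change of -0.04 (adjusted p = 0.787), and *Shmt2*, which turns serine into glycine, -0.12 (adjusted p = 0.141), although *Shmt2* was called lower with equal totals, at -0.35 (adjusted p = 2.45e-04). The transporter gene *Slc7a5* had 0.03 (adjusted p = 0.753) and the stress-induced *Sesn2* 0.07 (adjusted p = 0.288), and both were called lower with equal library totals, at -0.20 (adjusted p = 0.00558) and -0.15 (adjusted p = 0.00923). *Vldlr*, a lipoprotein receptor gene induced by ATF4, had 0.27 with a standard error of 0.60 (adjusted p = 0.73).

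In confined cPLA_2_ KO compared to nonconfined cPLA_2_ KO DCs, the question is whether the same changes occur in the knockout, whose libraries held less *Pla2g4a* mRNA but did not lack it. Most genes of the ATF4 arm rose here as well, and most of the chaperone arm fell. Of 42 members 15 were higher and 17 lower, against 22.8% and 23.4% of all genes tested. With an absolute log2 fold change above 1, 6 were higher and 1 lower, against 6.43% and 5.53%. The ATF4 arm held 12 higher and 3 lower genes with a median of 0.57, against 0.01 over all genes tested. Without confined cPLA_2_ KO replicate 2, 1 gene of the ATF4 arm was lower. The chaperone arm held 1 higher and 14 lower genes with a median of -0.44, and 2 of 4 sensors were higher. All 32 called members kept their call and direction with equal library totals. Genes of the ATF4 arm that fell were *Psat1* (-0.35), *Shmt2* (-0.26) and *Sesn2* (-0.18). For *Shmt2* the interaction was -0.14 (adjusted p = 0.335), or 0.05 with equal totals, and for *Sesn2* it was -0.25 (adjusted p = 0.0231), or -0.06 (adjusted p = 0.531) with equal totals. *Psat1* had 1219, 1326 and 1266 normalized counts in nonconfined and 1033, 948 and 1004 in confined cPLA_2_ KO libraries, with no overlap. Its call was lost without confined cPLA_2_ KO replicate 2, at -0.32 (adjusted p = 0.0643), and without nonconfined cPLA_2_ KO replicate 2, at -0.32 (adjusted p = 0.0575).

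The difference between these changes was tested as the interaction of confinement and genotype, the change in cPLA_2_ KO minus the change in cPLA_2_ WT cells. It was positive for 3 and negative for 14 of 42 members, against 10.2% and 15.6% of all genes tested. All genes tested had a median of 0.05, which moved to 0.24 with equal library totals, while the share of called genes with a positive interaction went from 39.5% to 70.7%. Under that scaling 6 members had a positive and 9 a negative interaction. In the ATF4 arm 11 of 19 genes had a negative interaction and 0 a positive one, with a median of -0.61. The count of 0 is from limma, which also gave 0 at an unadjusted p under 0.05, as did edgeR and DESeq2. Equal library totals gave 1 positive and 8 negative ones in this arm, and 1 was also positive with the compared conditions alone and without the 6 LPS libraries. In the chaperone arm 1 gene had a positive and 3 a negative interaction, with a median of -0.09, against 3 and 1 with equal library totals. The positive one, that of *Xbp1*, was lost without confined cPLA_2_ KO replicate 1 (0.24), confined cPLA_2_ WT replicate 2 (0.24) or nonconfined cPLA_2_ KO replicate 2 (0.23). Without the 6 LPS libraries, 4 members had a positive and 16 a negative interaction.

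*Atf4* had 10694, 9606 and 9983 normalized counts in nonconfined and 18394, 17773 and 17959 in confined cPLA_2_ KO libraries. The increase left no overlap between these groups (log2 fold change 0.84 ± 0.04, adjusted p = 2.01e-12), and its interaction was -0.14 ± 0.06 (adjusted p = 0.103), so a difference between genotypes in the *Atf4* mRNA response was not called, and its sign turned with equal library totals, to 0.05. *Ddit3* had 226, 241 and 208 normalized counts in nonconfined and 505, 604 and 539 in confined cPLA_2_ KO libraries. It rose by 1.28 on the log2 scale, with an interaction of -0.63 ± 0.15 (adjusted p = 0.00295). *Atf3* went from 3377, 3079 and 3414 to 6434, 6538 and 6699 normalized counts with confinement of cPLA_2_ KO cells. These libraries did not overlap, yet all confined cPLA_2_ KO libraries lay below the confined cPLA_2_ WT ones, and the interaction was -1.05 ± 0.07 (adjusted p = 3.71e-11). *Trib3* had 136, 125 and 145 normalized counts in nonconfined and 539.5, 553 and 517 in confined cPLA_2_ KO libraries. Its increase of 1.99 was smaller than in cPLA_2_ WT cells, with an interaction of -1.18 ± 0.18 (adjusted p = 2.43e-05). *Ppp1r15a* had 1728, 1654 and 1653 normalized counts in nonconfined and 3109.8, 3068 and 2882 in confined cPLA_2_ KO libraries. It rose by 0.85, with an interaction of -1.25 ± 0.08 (adjusted p = 2.52e-11).

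*Ddit4* had the most negative interaction of the 42 members. It had 1189, 1128 and 1032 normalized counts in nonconfined and 1609.9, 1720 and 1649 in confined cPLA_2_ KO libraries. The groups did not overlap, and the increase was 1.49-fold (log2 fold change 0.57 ± 0.18, adjusted p = 0.0111) beside 10.2-fold in cPLA_2_ WT cells. The interaction was -2.77 ± 0.25 (adjusted p = 1.60e-08). *Slc7a11* had 5777, 6441 and 5745 normalized counts in nonconfined and 49123, 52342 and 50816 in confined cPLA_2_ KO libraries. The increase was still 8.48-fold (log2 fold change 3.08 ± 0.13, adjusted p = 5.56e-14). Its interaction of -0.61 ± 0.18 (adjusted p = 0.0171) was lost with equal library totals, at -0.43 (adjusted p = 0.0706). *Aldh1l2* had 0.36 in cPLA_2_ KO cells (adjusted p = 0.525) and an interaction of -1.62 that was not called (adjusted p = 0.0552). *Chac1* rose by 2.40 and its interaction of -0.48 was not called (adjusted p = 0.112). *Mthfd2* rose by 0.26 with an interaction of -0.89, and *Asns* by 1.23 with an interaction of -0.76. For *Psat1* the interaction was 0.33 and was not called (adjusted p = 0.161), whereas equal totals gave a call, at 0.52 (adjusted p = 0.0275).

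**Figure D2:**
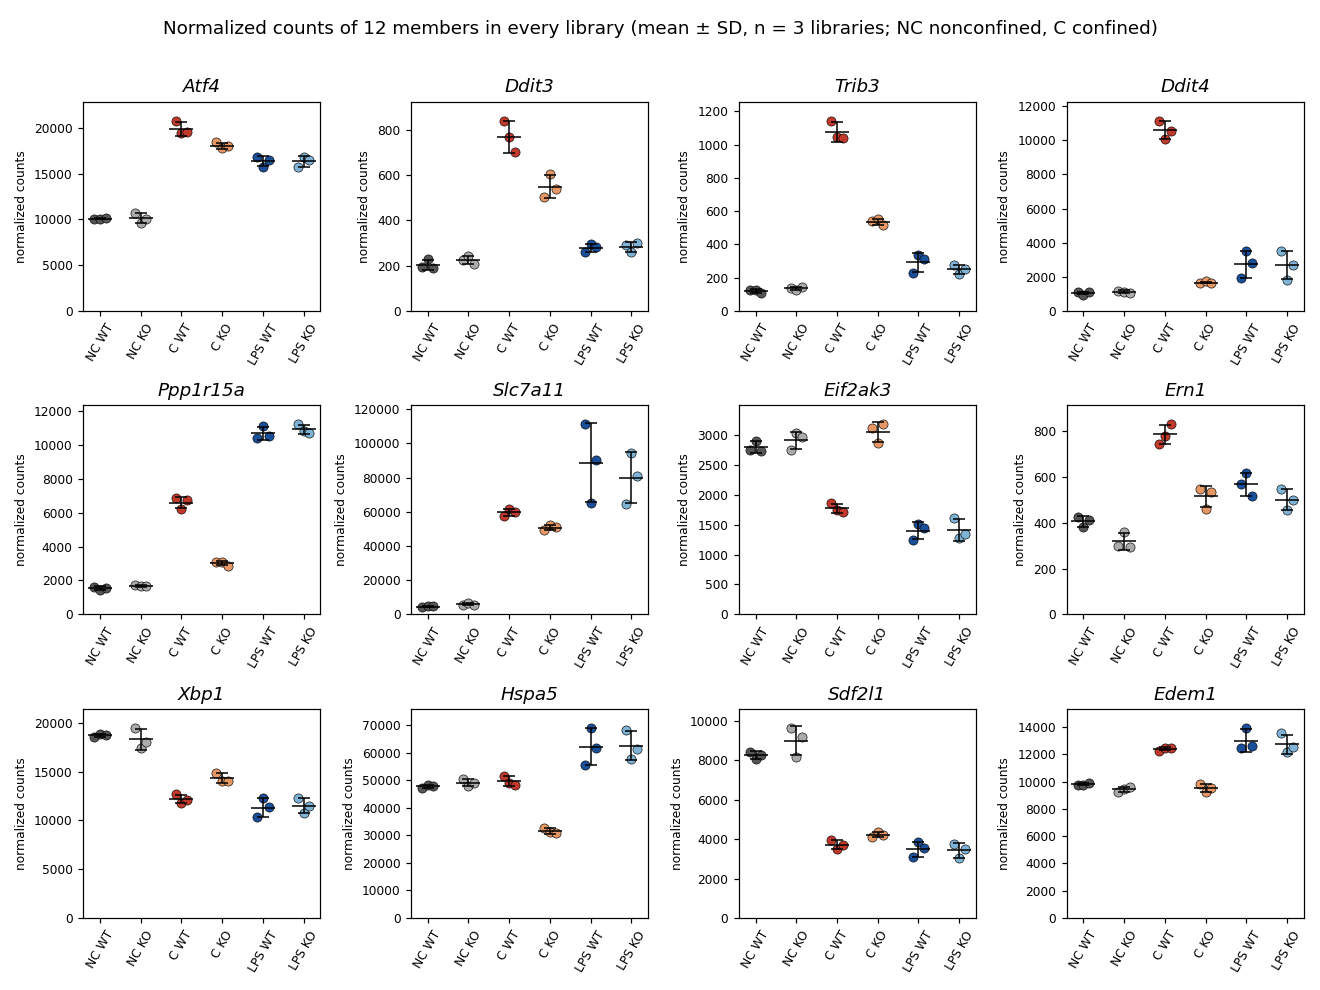
Normalized counts (vertical axes from 0) of 12 members in each of the 18 libraries, where points are libraries and bars the mean ± SD of 3 libraries for nonconfined (NC), confined (C) and LPS-treated cells by labelled genotype. *Ddit4* lies at 11163, 10107 and 10546 in confined cPLA_2_ WT libraries and at 1609.9, 1720 and 1649 in confined cPLA_2_ KO libraries, whereas *Sdf2l1* is at 4363 or below in all confined libraries and at 8051 or above in all nonconfined ones.

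The 4 sensors moved in different directions. *Eif2ak3* (identifier GSMG0044492, plus strand of chromosome 6 from 70821499 to 70882225) encodes PERK, the ER kinase that phosphorylates eIF2α. It had 2752, 2903 and 2722 normalized counts in nonconfined and 1858, 1744 and 1710.4 in confined cPLA_2_ WT libraries. All confined cPLA_2_ WT libraries were lower (log2 fold change -0.66 ± 0.08, adjusted p = 3.37e-07). cPLA_2_ KO libraries had 2746, 3023 and 2954 normalized counts before and 3105, 2863 and 3176 after confinement. These groups overlapped, with a log2 fold change of 0.07 (adjusted p = 0.514), and the interaction was 0.72 ± 0.11 (adjusted p = 3.54e-05). *Eif2ak4*, which encodes GCN2, the kinase that responds to uncharged tRNA, had 2010.1, 1901 and 1949.6 normalized counts in nonconfined and 2053, 2022 and 2119 in confined cPLA_2_ WT libraries. The confined libraries were higher by little, and the change of 0.08 was not called (adjusted p = 0.153) and became -0.14 with equal library totals, where it was called (adjusted p = 0.0115). In cPLA_2_ KO cells *Eif2ak4* had 1736, 1733 and 1788 normalized counts in nonconfined and 2266, 2237 and 2347 in confined libraries. It rose there without overlap (log2 fold change 0.38 ± 0.05, adjusted p = 8.13e-07), with an interaction of 0.30 ± 0.07 (adjusted p = 0.00151), or 0.49 with equal totals.

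*Ern1* encodes IRE1α, the kinase and endonuclease that splices *Xbp1* mRNA. It had 427, 381 and 411 normalized counts in nonconfined and 747, 782 and 832 in confined cPLA_2_ WT libraries. The groups did not overlap, and *Ern1* was the sensor with the largest increase (log2 fold change 0.95 ± 0.10, adjusted p = 3.98e-08). cPLA_2_ KO libraries held 301, 362 and 294 normalized counts before and 550.3, 463 and 534 after confinement. It rose there too (log2 fold change 0.69 ± 0.10, adjusted p = 6.46e-06), and the interaction of -0.26 was not called (adjusted p = 0.193). *Atf6*, the membrane-bound transcription factor, had 1256, 1186 and 1190.0 normalized counts in nonconfined and 1538, 1586 and 1539.8 in confined cPLA_2_ WT libraries. It rose without overlap (log2 fold change 0.36 ± 0.09, adjusted p = 0.00134), but equal library totals ended this call, at 0.14 (adjusted p = 0.205). In cPLA_2_ KO cells *Atf6* had 891, 1246 and 1152 normalized counts before and 1316, 1146 and 1277 after confinement. These groups overlapped, the change of 0.20 was not called (adjusted p = 0.0723), and neither was the interaction of -0.16 (adjusted p = 0.373), which was 0.02 with equal library totals.

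In the chaperone arm, *Xbp1* itself (identifier GSMG0007015, plus strand of chromosome 11 from 5470641 to 5475992) fell with confinement. It encodes the transcription factor that unconventional splicing activates. It had 18554, 18909.8 and 18739 normalized counts in nonconfined and 12679, 11775 and 12149 in confined cPLA_2_ WT libraries. All confined libraries were lower (log2 fold change -0.62 ± 0.06, adjusted p = 8.25e-09). cPLA_2_ KO cells had 19502, 17436 and 17996 normalized counts in nonconfined and 14901, 14038 and 14055 in confined libraries. The decrease was again without overlap (log2 fold change -0.35 ± 0.06, adjusted p = 3.86e-05), and it was smaller than in cPLA_2_ WT cells, with an interaction of 0.27 ± 0.08 (adjusted p = 0.0199). That call was lost without confined cPLA_2_ KO replicate 1, at 0.24 (adjusted p = 0.0545), without confined cPLA_2_ WT replicate 2, at 0.24 (adjusted p = 0.054), and without nonconfined cPLA_2_ KO replicate 2, at 0.23 (adjusted p = 0.0503). With equal totals the interaction was larger, at 0.46 (adjusted p = 3.22e-04).

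*Sdf2l1*, which encodes a cofactor of the chaperone BiP in the ER, had the largest decrease of the 42 members in cPLA_2_ WT cells. It had 8439.7, 8051 and 8280.1 normalized counts in nonconfined and 3959.9, 3500.3 and 3699 in confined cPLA_2_ WT libraries. The level was 2.22-fold lower, with no overlap (log2 fold change -1.15 ± 0.08, adjusted p = 5.10e-11). The cPLA_2_ KO libraries held 9655, 8185 and 9162 normalized counts before and 4119.7, 4363 and 4204 after confinement. The decrease there was -1.09 on the log2 scale, and the interaction of 0.07 was not called (adjusted p = 0.729). *Hyou1*, a large ER chaperone that exchanges nucleotides on BiP, had 9439, 9178 and 9072 normalized counts in nonconfined and 6266, 6082 and 6079 in confined cPLA_2_ WT libraries. It fell without overlap (log2 fold change -0.59 ± 0.08, adjusted p = 1.78e-06). cPLA_2_ KO cells had 8115, 9200.0 and 8756 normalized counts of *Hyou1* before and 6757, 6024 and 6274 after confinement. Its change there was -0.45, with an interaction of 0.14 (adjusted p = 0.424), which was called with equal totals, at 0.32 (adjusted p = 0.042). The other chaperones and folding enzymes that fell in cPLA_2_ WT cells, namely *Hsp90b1*, *Dnajc3*, *Pdia3*, *Pdia4*, *Pdia6*, *Calr*, *Canx*, *Manf* and the translocon subunit gene *Sec61b*, changed by -0.52 to -0.19. All of these but *Canx* also fell in cPLA_2_ KO cells, by values from -0.58 to -0.42, whereas *Canx* had -0.12 there (adjusted p = 0.0541, interaction 0.08, adjusted p = 0.453). With equal totals the decreases in cPLA_2_ WT cells grew to -0.66 for *Pdia3*, -0.66 for *Calr*, -0.42 for *Canx* and -0.51 for *Sec61b*. Under that scaling the cPLA_2_ KO decrease and the interaction were both called for *Canx*, at -0.15 (adjusted p = 0.0111) and 0.27 (adjusted p = 0.00342). *Creld2*, which assists disulfide exchange, had -0.16 in cPLA_2_ WT cells (adjusted p = 0.108), or -0.38 (adjusted p = 5.53e-04) with equal totals, and fell in cPLA_2_ KO cells, with -0.36 (interaction -0.20, adjusted p = 0.225).

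*Hspa5* (identifier GSMG0029192, plus strand of chromosome 2 from 34662102 to 34667559) stood apart from the other chaperones. It encodes BiP, the main ER chaperone, which also holds the ER sensors inactive. It had 47124, 48305 and 47824 normalized counts in nonconfined and 51605, 48910.2 and 48262 in confined cPLA_2_ WT libraries. These groups overlapped, and the change of 0.05 was not called (adjusted p = 0.493). With equal library totals it was -0.17 and passed the test (adjusted p = 0.0349). cPLA_2_ KO cells had 50359, 47805 and 48882 normalized counts in nonconfined and 32664, 31215 and 30798 in confined libraries. Every confined cPLA_2_ KO library was below every other nonconfined or confined library (log2 fold change -0.64 ± 0.06, adjusted p = 4.31e-08). The interaction was -0.69 ± 0.09 (adjusted p = 3.66e-06).

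The 3 genes of the chaperone arm that rose in confined cPLA_2_ WT cells were *Sel1l*, *Edem1* and *Syvn1*, and all 3 calls were lost with equal library totals. *Sel1l*, the adaptor of HRD1, a ubiquitin ligase for misfolded ER proteins, had 3713, 3471 and 3621 normalized counts in nonconfined and 4555, 4583 and 4723 in confined cPLA_2_ WT libraries. The groups did not overlap (log2 fold change 0.36 ± 0.07, adjusted p = 2.23e-04), and equal library totals gave 0.13 (adjusted p = 0.141). In cPLA_2_ KO cells *Sel1l* had 2571, 3447 and 2929.9 normalized counts before and 3889.9, 3538 and 3679 after confinement. It rose by 0.32 without overlap, and the interaction of -0.04 was not called (adjusted p = 0.833) and was 0.15 with equal library totals. *Edem1*, which directs misfolded glycoproteins to degradation, had 9773, 9768 and 9875 normalized counts in nonconfined and 12254, 12483 and 12488 in confined cPLA_2_ WT libraries. It rose without overlap (log2 fold change 0.34 ± 0.05, adjusted p = 2.04e-06), or by 0.11 (adjusted p = 0.0599) under the other scaling. Its cPLA_2_ KO libraries had 9216, 9469 and 9597 normalized counts before and 9835, 9231 and 9557 after confinement. Those groups overlapped, with a change of 0.02 (adjusted p = 0.793), or -0.02 with equal totals. The interaction of -0.32 ± 0.07 (adjusted p = 7.74e-04) was -0.13 (adjusted p = 0.159) with equal totals.

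*Syvn1* encodes the HRD1 ligase itself. It had 2574, 2285 and 2399 normalized counts in nonconfined and 2895, 2829 and 2774 in confined cPLA_2_ WT libraries. All confined libraries were higher (log2 fold change 0.23 ± 0.07, adjusted p = 0.0099). The call was lost without nonconfined cPLA_2_ WT replicate 2, at 0.19 (adjusted p = 0.0556), and equal library totals left 0.00 (adjusted p = 0.969). cPLA_2_ KO cells had 2404, 2505 and 2253 normalized counts before and 2299, 1974 and 1883 after confinement. Here *Syvn1* fell although the groups overlapped (log2 fold change -0.22 ± 0.07, adjusted p = 0.0154). That call was lost without confined cPLA_2_ KO replicate 2, at -0.20 (adjusted p = 0.061), without confined cPLA_2_ KO replicate 3, at -0.16 (adjusted p = 0.101), and without nonconfined cPLA_2_ KO replicate 2, at -0.19 (adjusted p = 0.065). The interaction was -0.45 ± 0.10 (adjusted p = 0.00201), and -0.26 (adjusted p = 0.058) with equal totals.

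LPS-treated cells were compared to nonconfined cells to set both arms beside a microbial stimulus. The nonconfined libraries are shared with the confinement comparisons, so the values stand side by side. In libraries labelled LPS cPLA_2_ WT 22 of 42 members were higher and 15 lower than in nonconfined cPLA_2_ WT libraries, against 33.4% and 29.4% of all genes tested. In libraries labelled LPS cPLA_2_ KO 23 were higher and 15 lower, against 33.4% and 30.1%. The 6 LPS libraries together against the 6 nonconfined ones gave 25 higher and 15 lower members, against 37.2% and 34.3% of all genes tested in that comparison. The ATF4 arm held 13 higher and 3 lower genes under the cPLA_2_ WT label and 14 and 3 under the cPLA_2_ KO label. Its medians were 0.70 and 0.80, against 0.03 and 0.02 over all genes tested. The chaperone arm was divided, with 8 higher and 10 lower genes under the cPLA_2_ WT label, 7 and 10 under the cPLA_2_ KO label, and medians of -0.18 and -0.19. These counts depended on the scaling. With equal library totals the median of all genes was -0.48 under the cPLA_2_ WT and -0.45 under the cPLA_2_ KO label. The share of called genes that were higher went from 53.1% to 25.3% and from 52.6% to 26%, and 13 members were higher and 23 lower under the cPLA_2_ WT label and 12 and 21 under the cPLA_2_ KO label. The ATF4 arm then held 11 higher and 7 lower genes under the cPLA_2_ WT label and 10 and 5 under the cPLA_2_ KO label, and the chaperone arm 2 and 13 under each.

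The 6 LPS libraries held 15704 to 16855 normalized counts, median 16456, of *Atf4*, and the 6 nonconfined libraries 9606 to 10694, median 10024. The groups did not overlap (log2 fold change 0.70 ± 0.03, adjusted p = 1.10e-14), and with equal totals the change was 0.19 under the cPLA_2_ WT and 0.21 under the cPLA_2_ KO label. *Atf3* had 19588 to 20963 normalized counts, median 20156, with LPS and 2919 to 3414, median 3088, without, and *Ppp1r15a* had 10429 to 11218 normalized counts, median 10754, and 1417 to 1728, median 1648. For both, LPS libraries were above the confined ones as well, with log2 fold changes of 2.68 and 2.75 against nonconfined cells. *Ddit3* had 259 to 299.8 normalized counts, median 287, with LPS. All LPS libraries were above all nonconfined ones and far below the confined ones (log2 fold change 0.39 ± 0.07, adjusted p = 7.42e-05), but the direction turned with equal library totals, to -0.06 under the cPLA_2_ WT and -0.14 under the cPLA_2_ KO label. *Trib3* had 219.7 to 334 normalized counts, median 264, with LPS, which was above nonconfined and below confined libraries (log2 fold change 1.07 ± 0.09, adjusted p = 4.11e-10), with 0.76 and 0.40 under the cPLA_2_ WT and cPLA_2_ KO labels with equal totals. *Chac1* had 0.28 over the 6 LPS libraries, beside 2.88 with confinement of cPLA_2_ WT cells, and turned to -0.39 under the cPLA_2_ WT and -0.03 under the cPLA_2_ KO label with equal totals. *Psat1* had 598 to 914 normalized counts, median 689, with LPS. It was lower than in all nonconfined libraries (log2 fold change -1.03 ± 0.08, adjusted p = 2.61e-10), and *Shmt2* and *Slc7a5* fell too, by values of -0.91 and -0.56. With equal totals these were -1.68 and -1.37 for *Psat1*, -1.56 and -1.26 for *Shmt2*, and -1.26 and -0.84 for *Slc7a5* under the cPLA_2_ WT and cPLA_2_ KO labels.

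The LPS libraries of each label differed from each other for several members. *Slc7a11* had 111201, 64929 and 90103 normalized counts in libraries labelled LPS cPLA_2_ WT and 64619, 94289 and 80736 in those labelled LPS cPLA_2_ KO. Within each label its order followed that of *Ddx3y*. *Ddit4* had 1896, 3495 and 2787 normalized counts under the cPLA_2_ WT and 3496, 1831 and 2691 under the cPLA_2_ KO label. Its order was the reverse of that of *Ddx3y*, and all 6 values were above the nonconfined and confined cPLA_2_ KO libraries and below the confined cPLA_2_ WT ones. *Hspa5* had 55593, 69039 and 61787 and 68208, 57744 and 61496 normalized counts under these labels, also in the reverse order. The sums of the eosinophil markers were 47382, 27450 and 38018 under the cPLA_2_ WT and 27436, 47631 and 38651 under the cPLA_2_ KO label, in the order of *Ddx3y*, and their part in these differences was not tested. The neutrophil sums were 320959, 302180 and 304518 and 288518, 324702 and 306393, also in the order of *Ddx3y*. The plasma cell or B cell sums, 1528, 1148 and 1285 and 1063, 1505 and 1308, and the DC marker sums given above had that order too. The mast cell or basophil sums were 19457, 21575 and 20244 and 21941, 19614 and 20762, in the reverse order. The macrophage sums were 146647, 149856 and 142666 and 144753, 141068 and 144687. They had neither order under the cPLA_2_ WT label and the reverse order under the cPLA_2_ KO label. The part of these lists was not tested either.

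Over the 6 LPS libraries *Slc7a11* was higher than in nonconfined cells by 3.98 on the log2 scale and *Ddit4* by 1.28, with 0.83 and 0.73 for *Ddit4* under the cPLA_2_ WT and cPLA_2_ KO labels with equal totals. Among the sensors, *Eif2ak3* had 1241 to 1615 normalized counts, median 1396, with LPS and 2722 to 3023, median 2827, without. It fell without overlap (log2 fold change -1.03 ± 0.06, adjusted p = 3.31e-13). *Eif2ak4* had 1415 to 1566 normalized counts, median 1462, with LPS and 1733 to 2010.1, median 1844, in nonconfined libraries, a decrease without overlap (log2 fold change -0.33 ± 0.03, adjusted p = 1.17e-08). With equal totals *Eif2ak3* had -1.52 and -1.53 and *Eif2ak4* had -0.95 and -0.70 under the cPLA_2_ WT and cPLA_2_ KO labels. *Ern1* had 457 to 618 normalized counts, median 532, with LPS and 294 to 427, median 372, without. The groups did not overlap, and it rose (log2 fold change 0.57 ± 0.07, adjusted p = 2.51e-07), but with equal library totals it had -0.03 (adjusted p = 0.795) under the cPLA_2_ WT and 0.17 (adjusted p = 0.134) under the cPLA_2_ KO label. *Atf6* had 1282, 1251 and 1371 normalized counts under the cPLA_2_ WT and 1345, 1261 and 1236 under the cPLA_2_ KO label. Its change was 0.10 (adjusted p = 0.318) and 0.24 (adjusted p = 0.0225), but with equal totals it was called lower under both labels, at -0.41 (adjusted p = 4.40e-04) and -0.24 (adjusted p = 0.023). Over the 6 LPS libraries it was 0.17 (adjusted p = 0.0181). The call under the cPLA_2_ KO label was also lost without LPS cPLA_2_ KO replicate 1, at 0.20 (adjusted p = 0.0783), and without nonconfined cPLA_2_ KO replicate 1, at 0.10 (adjusted p = 0.241). It was lost by edgeR, at 0.18 (adjusted p = 0.0829), with TMM, at 0.19 (adjusted p = 0.0681), and with the compared conditions alone, at 0.24 (adjusted p = 0.0872).

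In the chaperone arm, *Xbp1* had 10329 to 12271 normalized counts, median 11407, with LPS and 17436 to 19502, median 18647, without. It fell without overlap (log2 fold change -0.70 ± 0.04, adjusted p = 1.19e-12), and so did *Sdf2l1*, which had 3029.8 to 3854 normalized counts, median 3522, with LPS (log2 fold change -1.32 ± 0.06, adjusted p = 3.85e-15). *Hyou1* had 6228 to 8659 normalized counts, median 7278, with LPS and 8115 to 9439, median 9125, without, and fell by less, with some overlap (log2 fold change -0.29 ± 0.06, adjusted p = 7.94e-05). Equal totals made these decreases larger, at -1.25 and -1.15 for *Xbp1*, -1.76 and -1.87 for *Sdf2l1*, and -0.81 and -0.77 for *Hyou1* under the cPLA_2_ WT and cPLA_2_ KO labels. *Hspa5* rose with LPS, by 0.36 over the 6 libraries, and turned to -0.14 and -0.13 under the cPLA_2_ WT and cPLA_2_ KO labels with equal totals. *Sel1l* had 5299.9 to 6344 normalized counts, median 5771, with LPS and 2571 to 3713, median 3459, without (log2 fold change 0.82 ± 0.05, adjusted p = 3.39e-12), and with equal totals its change was 0.22 under the cPLA_2_ WT and 0.43 under the cPLA_2_ KO label. For each of *Sel1l*, *Syvn1* and *Edem1*, all LPS libraries were above all nonconfined ones. *Syvn1* had 3457 to 4021 normalized counts, median 3694, with LPS (log2 fold change 0.63 ± 0.05, adjusted p = 3.20e-10), and with equal totals its change was 0.10 and 0.16 and was not called. *Edem1* had 12187 to 13935 normalized counts, median 12534, with LPS (log2 fold change 0.42 ± 0.03, adjusted p = 1.82e-10) and turned to -0.11 and -0.05. *Dnajb9*, a cochaperone gene that XBP1 induces, rose by 0.72 over the 6 LPS libraries, with 0.23 and 0.21 under the cPLA_2_ WT and cPLA_2_ KO labels with equal totals. *Herpud1*, which serves ER degradation, rose by 0.42 but turned to -0.07 and -0.09 under the cPLA_2_ WT and cPLA_2_ KO labels with equal totals.

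Genotypes were compared within each treatment to ask in which treatment each arm differed. In nonconfined cells 0 of 42 members were higher and 6 lower in cPLA_2_ KO cells, against 4.78% and 4.11% of all genes tested. For the 0 higher members, limma gave 4 at an unadjusted p under 0.05, and edgeR and DESeq2 gave 0 each. With equal library totals 8 members were lower, and the share of called genes that were higher in cPLA_2_ KO cells went from 53.8% to 42%. The 6 lower members were *Psat1* (-0.39), *Shmt2* (-0.30), *Slc7a5* (-0.39), *Eif2ak4* (-0.16), *Ern1* (-0.35) and *Sel1l* (-0.28). Their number fell to 2 without nonconfined cPLA_2_ KO replicate 1, cPLA_2_ KO replicate 3, cPLA_2_ WT replicate 1 or cPLA_2_ WT replicate 3. Without nonconfined cPLA_2_ KO replicate 2, or without the 6 LPS libraries, 2 members were higher. The calls of *Ern1* and *Sel1l* were lost without each of cPLA_2_ KO replicates 1 and 3 and cPLA_2_ WT replicates 1 and 3. *Ern1* then had -0.31 (adjusted p = 0.128), -0.30 (adjusted p = 0.136), -0.32 (adjusted p = 0.109) and -0.34 (adjusted p = 0.0935), and *Sel1l* -0.18 (adjusted p = 0.132), -0.27 (adjusted p = 0.0664), -0.26 (adjusted p = 0.073) and -0.28 (adjusted p = 0.0643). The call of *Eif2ak4* was lost without any 1 of the 6 nonconfined libraries, with values from -0.18 to -0.14, with the compared conditions alone (adjusted p = 0.0685) and with no filter (adjusted p = 0.058). The call of *Psat1* was lost without any of them but nonconfined cPLA_2_ KO replicate 2, with values from -0.42 to -0.36. It was also lost with a replicate block, at -0.39 (adjusted p = 0.0622), and with no filter (adjusted p = 0.0708).

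In confined cells 3 of 42 members were higher and 21 lower in cPLA_2_ KO cells, against 18.8% and 20.6% of all genes tested. All genes tested had a median of 0.04, which moved to 0.19 with equal totals, where the share of called genes that were higher went from 47.7% to 69.8% and 7 members were higher and 16 lower. The ATF4 arm held 0 higher and 15 lower genes, with a median of -0.53, and the 0 is from limma, which also gave 0 at an unadjusted p under 0.05, as did edgeR and DESeq2. The chaperone arm held 1 higher and 4 lower genes, with a median of -0.03, or 5 and 3 with equal totals, and 2 were higher without confined cPLA_2_ WT replicate 1, with the compared conditions alone and without the 6 LPS libraries. In each ATF4 arm gene that follows the libraries of the genotypes did not overlap. *Ddit4* was 6.39-fold lower in confined cPLA_2_ KO than in confined cPLA_2_ WT cells (log2 fold change -2.67 ± 0.18, adjusted p = 5.25e-11), *Ppp1r15a* was 2.19-fold and *Trib3* 2-fold lower. *Ddit3* had -0.49 and *Atf3* -0.93. *Slc7a11* had -0.24 and was not called (adjusted p = 0.168). *Atf4* was lower by little, at -0.14 ± 0.04 (adjusted p = 0.0148), turned to 0.01 with equal totals, and lost its call without confined cPLA_2_ WT replicate 1, at -0.11 (adjusted p = 0.086). Of the 5 called chaperone arm genes, *Hspa5* (-0.65), *Syvn1* (-0.47), *Edem1* (-0.38) and *Sel1l* (-0.32) were lower and *Xbp1* (0.23) was higher. With equal totals *Sel1l* had -0.17 and lost its call (adjusted p = 0.0861), *Edem1* had -0.22, and *Xbp1* had 0.39.

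By limma all 4 sensors were called between confined cPLA_2_ KO and confined cPLA_2_ WT cells. *Eif2ak3* was higher (log2 fold change 0.78 ± 0.08, adjusted p = 5.33e-08) and so was *Eif2ak4* (log2 fold change 0.14 ± 0.05, adjusted p = 0.0172), whose call was lost without confined cPLA_2_ KO replicate 3, at 0.13 (adjusted p = 0.0764), and without confined cPLA_2_ WT replicate 2, at 0.13 (adjusted p = 0.0652). This call was also lost by edgeR, at 0.12 (adjusted p = 0.0528), and with TMM, at 0.12 (adjusted p = 0.0537). With equal totals *Eif2ak4* had a larger difference, 0.30 (adjusted p = 2.53e-05). *Ern1* was lower (log2 fold change -0.61 ± 0.10, adjusted p = 3.75e-05) and *Atf6* too (log2 fold change -0.32 ± 0.09, adjusted p = 0.00575), although with equal totals *Atf6* had -0.17 (adjusted p = 0.143). Between libraries labelled LPS cPLA_2_ KO and LPS cPLA_2_ WT, 0 members were higher and 0 lower by limma, as for 0% and 0% of all genes tested. At an unadjusted p under 0.05 limma also called 0 members in either direction, and edgeR and DESeq2 called 0. Over all genes, 355 were higher and 535 lower at an unadjusted p under 0.05. Since the labels of these libraries do not follow *Pla2g4a*, this comparison does not measure the loss of cPLA_2_.

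Confined cPLA_2_ WT cells were last set against libraries labelled LPS cPLA_2_ WT. The values of *Pla2g4a* go against that label, and 4 of 4 Y-linked genes were lower in the confined cells. Collection was 4 h after confinement but on the day after LPS. Treatment, donor sex, genotype and time in culture therefore cannot be told apart in this comparison. Of 42 members 16 were higher and 18 lower in confined cells, against 21.6% and 27.2% of all genes tested. The median of all genes was -0.02 and moved to 0.27 with equal totals, where the share of called genes that were higher went from 44.2% to 75.1% and 22 members were higher and 5 lower. The ATF4 arm held 11 higher and 5 lower genes and the chaperone arm 1 and 13, with medians of 0.47 and -0.29. All 4 sensors were higher in confined cells, by 0.26 to 0.52. The call of *Atf6* was lost without confined cPLA_2_ WT replicate 2, at 0.24 (adjusted p = 0.058), and without LPS cPLA_2_ WT replicate 2, at 0.23 (adjusted p = 0.0614). Within the ATF4 arm, *Chac1* (2.76), *Ddit4* (2.00), *Trib3* (1.90) and *Ddit3* (1.46) were higher with confinement. *Vldlr* (-1.69), *Atf3* (-0.70), *Ppp1r15a* (-0.69), *Slc7a11* (-0.54) and *Slc3a2* (-0.39) were lower, and without LPS cPLA_2_ WT replicate 1 *Slc7a11* had -0.36 (adjusted p = 0.0161). *Vldlr* had few normalized counts, 17.4, 29.2 and 11.8 in confined cPLA_2_ WT and 29.1, 108.9 and 70.9 in LPS cPLA_2_ WT libraries. These groups overlapped, and its standard error was 0.60. With equal totals the ATF4 arm held 12 higher and 2 lower genes, *Atf3* and *Ppp1r15a*, and the calls were lost for *Vldlr* (-1.40, adjusted p = 0.0573), *Slc7a11* (-0.25, adjusted p = 0.108) and *Slc3a2* (-0.10, adjusted p = 0.184). *Hyou1* was lower with -0.29, or -0.19 (adjusted p = 0.0413) without LPS cPLA_2_ WT replicate 2, and -0.00 (adjusted p = 0.988) with equal totals. The chaperone arm gene that was higher was *Creld2* (0.52), beside 2 higher genes of this arm by edgeR, 2 by DESeq2, 3 with TMM and 3 without LPS cPLA_2_ WT replicate 2. With equal totals the chaperone arm held 6 higher and 3 lower genes.

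Further genes of these pathways were counted from longer lists. Of 31 other ATF4-linked genes tested, confinement raised 21 and lowered 2 in cPLA_2_ WT cells, with a median of 0.54, against 28.2% higher and 28.4% lower of all genes tested. With equal library totals 16 were higher and 8 lower. In cPLA_2_ KO cells it raised 16 and lowered 3, against 22.8% and 23.4%, or 16 and 3 with equal totals. The interaction was negative for 11 and positive for 2, against 15.6% and 10.2% of all genes tested, or 7 and 3 with equal totals. The growth arrest gene *Gadd45a* rose by 3.39 in cPLA_2_ WT and 1.02 in cPLA_2_ KO cells (interaction -2.37, adjusted p = 2.61e-11). The stress-induced regulator *Nupr1* rose by 3.10 and 0.90 (interaction -2.20), and *Cebpb*, a dimer partner of ATF4, by 2.16 and 1.46 (interaction -0.70). The 2 that fell in cPLA_2_ WT cells were the glutamine transporter gene *Slc1a5* (-0.68) and the folate enzyme gene *Mthfd1l* (-0.32), and *Mthfd1l* rose in cPLA_2_ KO cells (0.37, interaction 0.69). Of 48 other genes of ER folding, translocation and degradation, 10 rose and 27 fell in cPLA_2_ WT cells, with a median of -0.19, and 5 were higher and 35 lower with equal totals. In cPLA_2_ KO cells 4 rose and 29 fell, or 4 and 30 with equal totals. *Derl3* (-1.65), which serves ER degradation, and the disulfide isomerase genes *Pdia5* (-1.07) and *Txndc5* (-0.95) fell most. *Edem2* (1.35), the oxidase gene *Ero1l* (1.03) and the vesicle coat gene *Sec23b* (0.70) rose most, although *Sec23b* had -0.10 in cPLA_2_ KO cells (interaction -0.80).

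Of 24 other genes of stress sensing and eIF2, 6 rose and 11 fell in cPLA_2_ WT cells, and 5 rose and 7 fell in cPLA_2_ KO cells. These are 25% and 45.8% of the list, against 28.2% and 28.4% of all genes tested, and 20.8% and 29.2%, against 22.8% and 23.4%. Equal library totals gave 6 and 16 in cPLA_2_ WT and 4 and 8 in cPLA_2_ KO cells. *Eif2ak2*, which encodes the eIF2α kinase PKR that double-stranded RNA activates, rose by 1.00 in cPLA_2_ WT cells and fell in cPLA_2_ KO cells, with -0.78 and an interaction of -1.79 ± 0.10 (adjusted p = 3.06e-12). *Traf2*, an adaptor of IRE1, rose by 1.04 and *Ppp1r15b*, which encodes the constitutive eIF2α phosphatase subunit, by 0.94 in cPLA_2_ WT cells. *Oma1* and *Dele1*, which relay mitochondrial stress to eIF2α, fell in cPLA_2_ WT cells, with -0.50 and -0.48 (interactions 0.35, adjusted p = 0.0319, and 0.37, adjusted p = 0.094), and *Mbtps1*, the protease that cleaves ATF6, had -0.39. With LPS, 12 of the 31 ATF4-linked genes rose and 12 fell under the cPLA_2_ WT label and 13 rose and 10 fell under the cPLA_2_ KO label, against 33.4% and 29.4%, and 33.4% and 30.1%, of all genes tested. With equal library totals these were 7 and 18, and 9 and 18. Of the 48 ER genes 18 rose and 18 fell under the cPLA_2_ WT label and 16 and 15 under the cPLA_2_ KO label, but 6 and 37, and 5 and 36, with equal totals. *Ero1l* had 2.78 and 2.63 under these labels. Of the 24 sensing genes 10 rose and 5 fell under the cPLA_2_ WT label and 10 and 7 under the cPLA_2_ KO label, but 3 and 17, and 4 and 17, with equal totals.

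Of the 42 entries, 10 overlap another entry with a symbol in position, and the sources used do not state whether reads were counted by strand. *Chac1* lies wholly within the coordinates of *Spint1*, over 3140 bases, and the mean of *Spint1* was 21220 normalized counts in nonconfined cPLA_2_ WT and 19680 in confined cPLA_2_ WT libraries. *Eif2ak4* shares 1483 bases with *Srp14*, with means of 3957 and 4146. *Ddit3* shares 68 bases with *Mars1* (4102 and 4420.0) and *Syvn1* 97 bases with *Mrpl49* (1496 and 1124). The entries that overlap *Hsp90b1*, *Pdia3*, *Ppp1r15a*, *Shmt2*, *Pdia6* and *Atf6* had means of at most 45.8 normalized counts in every condition. The counts do not show which entry a shared read came from.

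Motif matches were counted in the promoters of each arm, and the difference between arms was not tested. Promoters of 300 bases (250 before the start of transcription and 50 after it) from RefSeq, on the build GRCm38.p6, were found for 37 of 42 members. On both strands, 3 motifs were searched. The ER stress element is CCAAT, then 9 bases of any kind, then CCACG. The XBP1 and ATF6 core is ACGTGG, whose reverse complement begins with CCACG, so that both can overlap where a T follows. The core of the C/EBP-ATF response element is TGATGNAA, with N for any base. The ER stress element was in 8 of 17 promoters of the chaperone arm (47.1%), 0 of 17 of the ATF4 arm and 0.137% of 27025 genes with a promoter. The ACGTGG core was in 4 of 17 (23.5%), 0 of 17 and 9.4% of these genes, respectively. The TGATGNAA core was in 1 of 17 chaperone arm promoters (5.88%), in 6 of 17 of the ATF4 arm (35.3%) and in 4.51% of all. None of the 3 sensor promoters found held any of them. These matches are letters in a window and were not tested as binding sites. The promoters shown all hold a match. Of their genes, 2 are of the chaperone arm with a called interaction, that of *Syvn1* lost with equal totals. The other 2 are of the ATF4 arm with large increases. *Xbp1*, *Edem1* and *Ddit4*, which also meet this description, had no match. Of other ATF4 arm genes that rose by more than 1 on the log2 scale in confined cPLA_2_ WT cells, *Ddit3*, *Ppp1r15a*, *Slc3a2* and *Mthfd2* had no match. *Asns*, *Atf3* and *Chac1* had the TGATGNAA core. The promoters shown are written 5′ to 3′ on the strand of the gene, with the ER stress element or the TGATGNAA core in capitals. They lie at chr2:34771840-34772139 (plus strand) for *Hspa5*, chr19:6046326-6046625 (plus) for *Syvn1*, chr2:152344011-152344310 (minus) for *Trib3* and chr3:50443564-50443863 (minus) for *Slc7a11*.
Hspa5: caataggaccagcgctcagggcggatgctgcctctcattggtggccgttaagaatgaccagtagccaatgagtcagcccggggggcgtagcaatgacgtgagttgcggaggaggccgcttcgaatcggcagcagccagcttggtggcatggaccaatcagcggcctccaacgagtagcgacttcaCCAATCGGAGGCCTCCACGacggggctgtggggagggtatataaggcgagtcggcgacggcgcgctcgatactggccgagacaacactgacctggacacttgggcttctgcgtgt
Syvn1: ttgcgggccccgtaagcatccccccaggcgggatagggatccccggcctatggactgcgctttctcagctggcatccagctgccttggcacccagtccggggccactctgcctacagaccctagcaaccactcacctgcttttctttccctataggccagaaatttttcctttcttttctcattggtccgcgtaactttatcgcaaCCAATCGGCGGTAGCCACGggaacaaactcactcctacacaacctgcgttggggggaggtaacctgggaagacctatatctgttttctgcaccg
Trib3: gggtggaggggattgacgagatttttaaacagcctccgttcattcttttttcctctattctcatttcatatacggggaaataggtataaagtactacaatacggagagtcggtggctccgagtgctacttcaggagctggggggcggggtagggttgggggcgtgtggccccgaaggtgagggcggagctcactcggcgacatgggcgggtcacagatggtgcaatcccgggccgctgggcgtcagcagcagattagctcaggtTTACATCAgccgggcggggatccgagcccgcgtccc
Slc7a11: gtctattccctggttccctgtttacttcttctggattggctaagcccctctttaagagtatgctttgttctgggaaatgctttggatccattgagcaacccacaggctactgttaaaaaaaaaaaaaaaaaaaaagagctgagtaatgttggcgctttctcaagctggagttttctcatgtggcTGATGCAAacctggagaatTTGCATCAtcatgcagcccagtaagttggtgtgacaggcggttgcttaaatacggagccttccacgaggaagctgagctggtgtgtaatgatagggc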

How the data were processed

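The deposited table gives signal values per gene, which the authors made by mapping reads with STAR 2.7.5a to mm39 (GRCm39), counting with featureCounts 1.5.0 against the annotation Mouse FAST DB, and normalizing the counts with DESeq2 size factors in R 3.5.3. Read counts were recovered from the smallest step between the values of a library (100% whole within 0.01), and depth ranged from 33027230 to 61300021 reads on genes. How far depth and the spread between libraries each limit the precision for single members was not tested. Groups follow the labels. The protocol text mentions LPS for every sample, and the titles and treatment entries were followed. Libraries were made with a pair of kits, and the labels do not say which library used which, so whether kit and condition coincide is unknown.

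The log2 of each normalized count plus 1 was fitted by limma 3.58.1 under R 4.3.3 (lmFit, contrasts.fit, eBayes with trend), with 1 mean for each of the 6 conditions over 18 libraries. Testing was limited to genes that reached 10 normalized counts in 3 or more libraries, with two-sided p-values adjusted by the Benjamini-Hochberg method over the 17875 genes tested in each of 9 comparisons, and a call needed an adjusted p under 0.05. Standard errors are on the log2 scale. The members and lists were chosen with earlier results of these data known, and lists are described by counts and medians. The lists are the ATF4 arm, the stress sensors, the chaperone arm, 3 lists of further pathway genes, and markers of DCs, macrophages, neutrophils, eosinophils, mast cells or basophils, and plasma cells or B cells, with 4 Y-linked genes. Genes with values in every library are the regulators and, in each arm, up to 3 called members with the largest increase, decrease, negative and positive interaction and a mean of at least 100 normalized counts. Other members were named after their values were seen. Libraries share a replicate number. Residuals of the same number correlated at 0.34, 0.21 and 0.04 between confined cPLA_2_ KO and confined cPLA_2_ WT libraries. Between confined and nonconfined cPLA_2_ WT libraries the correlations were 0.18, 0.11 and -0.06, and elsewhere they were at most 0.04. They were not all above 0.1 in any comparison, so libraries were not paired.

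The alternatives tried were a pseudocount of 0.5 or 5, the filter set to 100 or left out, equal library totals, TMM, edgeR 4.0.16 and DESeq2 1.42.0 on recovered reads, the compared conditions alone, a replicate block, an added absolute log2 fold change above 1, a fold change of 1.5 at an unadjusted p under 0.05, pooled LPS labels, and each library left out. The pipeline was tested on simulated data. Figures used matplotlib 3.10.9. The authors' filter on intergenic signal, splicing and other experiments of the study were not analysed here.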

Additional observations from a re-analysis of the deposited data

Results flagged for a closer look

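Of the 19 members with values in every library, 12 had a called interaction of confinement and genotype (change in cPLA_2_ KO minus change in cPLA_2_ WT cells). The test was limma's, at an adjusted p under 0.05 (values ± standard error). Some of these members were chosen for a called interaction, so this count follows in part from the choice. Of all genes tested, 10.2% had a positive and 15.6% a negative interaction. In the ATF4 arm the interactions were -0.63 ± 0.15 (adjusted p = 0.00295) for *Ddit3*, -1.05 ± 0.07 (adjusted p = 3.71e-11) for *Atf3*, -0.61 ± 0.18 (adjusted p = 0.0171) for *Slc7a11*, -2.77 ± 0.25 (adjusted p = 1.60e-08) for *Ddit4*, -1.18 ± 0.18 (adjusted p = 2.43e-05) for *Trib3* and -1.25 ± 0.08 (adjusted p = 2.52e-11) for *Ppp1r15a*. Among the sensors they were 0.72 ± 0.11 (adjusted p = 3.54e-05) for *Eif2ak3* and 0.30 ± 0.07 (adjusted p = 0.00151) for *Eif2ak4*. In the chaperone arm they were 0.27 ± 0.08 (adjusted p = 0.0199) for *Xbp1*, -0.32 ± 0.07 (adjusted p = 7.74e-04) for *Edem1*, -0.45 ± 0.10 (adjusted p = 0.00201) for *Syvn1* and -0.69 ± 0.09 (adjusted p = 3.66e-06) for *Hspa5*. With equal library totals the calls of *Slc7a11*, *Edem1* and *Syvn1* were lost. Genotype and the sex of the donor cannot be told apart in these libraries.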

How the results depend on the processing

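Each count of members called, by comparison and direction, was paired with each setting that applied to it. The count was within 1.5 times its value in 317 of these pairs and outside it in 41. Pairs in which both counts were 0, such as those between LPS labels, are among the 317. Leaving out each library in turn, higher members numbered 17 to 18 for confinement in cPLA_2_ WT and 15 to 16 in cPLA_2_ KO cells, 2 to 3 for the interaction, 20 to 22 for LPS under the cPLA_2_ WT and 21 to 23 under the cPLA_2_ KO label, 0 to 2 for cPLA_2_ KO against cPLA_2_ WT in nonconfined, 2 to 4 in confined and 0 to 0 in LPS-treated cells, and 15 to 17 for confined against LPS-treated cPLA_2_ WT cells. Lower members numbered 14 to 14, 14 to 18, 13 to 17, 13 to 16, 12 to 16, 2 to 5, 19 to 21, 0 to 0 and 14 to 18 in the same order.

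In that order, an absolute log2 fold change above 1 left 11, 6, 0, 8, 7, 0, 0, 0 and 5 higher and 1, 1, 4, 4, 2, 0, 5, 0 and 1 lower members. The shares of all genes tested that pass this rule are given above for confinement in each genotype. For the other comparisons they were not counted, so those counts cannot be set against all genes. A fold change of 1.5 at an unadjusted p under 0.05 gave 1 positive interaction, and 14 (LPS, cPLA_2_ WT label), 15 (LPS, cPLA_2_ KO label), 1 (cPLA_2_ KO against cPLA_2_ WT, confined) and 7 (confined against LPS) higher members. It gave 5 (confinement, cPLA_2_ WT), 2 (confinement, cPLA_2_ KO), 8 and 7 (LPS), 0 (cPLA_2_ KO against cPLA_2_ WT, nonconfined), 10 (confined) and 4 (confined against LPS) lower members. Shares of all genes tested were not counted under this rule. Equal library totals gave 6 positive and 9 negative interactions, 13 higher and 23 lower members for LPS under the cPLA_2_ WT and 12 higher under the cPLA_2_ KO label, 7 higher for cPLA_2_ KO against cPLA_2_ WT in confined cells and 5 lower for confined against LPS-treated cells. For cPLA_2_ KO against cPLA_2_ WT in nonconfined cells, 2 members were higher with the compared conditions alone and without the 6 LPS libraries, a setting chosen after seeing the data, as was leaving out both LPS libraries numbered 3. A replicate block gave 5 lower members there and 14 for LPS under each label. The cause was not tested.

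Among the called results of the genes with values in every library, 9 reversed, all under equal library totals. *Atf4* had 0.0141 for cPLA_2_ KO against cPLA_2_ WT in confined cells. For LPS under the cPLA_2_ WT label *Ddit3* had -0.0574, *Edem1* -0.11, *Ern1* -0.0319 and *Hspa5* -0.139, and under the cPLA_2_ KO label *Atf6* had -0.242, *Ddit3* -0.144, *Edem1* -0.0471 and *Hspa5* -0.133. The cause was not tested. A further 61 lost their call in the same direction, and 2028 kept both.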
